A study of Mus musculus with 8 samples.

Results

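The genes described here are the acyltransferases and phosphatases that build triglyceride in the liver, together with Pnpla3 and its neighbour Pnpla5. They were taken by name from the deposited table of normalized counts, and all 10 (Gpam, Agpat2, Agpat3, Lpin1, Lpin2, Mogat1, Dgat1, Dgat2, Pnpla3 and Pnpla5) were found among its 24972 genes. The RNA came from livers of C57BL/6J mice that were 10 weeks old when an adeno-associated virus of serotype 8 was injected into a vein, and 18 weeks old when the tissue was taken 8 weeks later. The ATF3 group received AAV8-ALB-ATF3 and the Null group AAV8-ALB-Null, where ALB was read as the albumin promoter, which is active in hepatocytes. Both groups thus carried a virus, and no group without virus was analysed here. There were 4 libraries in each group, although the design text gives 8 mice per group. The labels do not tie libraries to mice and give no sex, so the p-values below measure the spread between these libraries.

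Triglyceride is made in the endoplasmic reticulum from glycerol 3-phosphate. Gpam (the mitochondrial glycerol-3-phosphate acyltransferase) adds the first fatty acid, the Agpat enzymes add the next and give phosphatidic acid, lipins remove the phosphate, and Dgat1 or Dgat2 adds the last fatty acid to diacylglycerol. Mogat1 reaches diacylglycerol by another way, from monoacylglycerol. Pnpla3 and Pnpla5 belong to the patatin-like family of lipases and acyltransferases; the Pnpla3 protein sits on lipid droplets, and its gene is known as a target of the lipogenic factor SREBP-1c in liver.

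The sum of normalized counts per library was 23919261 to 28446045. Taken over genes, the correlation of log values between libraries was 0.959 to 0.988 for pairs of the same group and 0.932 to 0.959 for pairs of different groups, a description since genes do not stand for replicates. Atf3 transcripts lay between 20.3 and 24.5 normalized counts in the Null libraries and between 5611 and 7053 in the ATF3 libraries, which matched the labels. The hepatocyte markers Alb, Ttr, Apoa2, Tat, Hnf4a and Cps1 were abundant in all 8 libraries, with sums from 1570877 to 3069995. Adipocyte markers were low, but Null 3 stood apart: it held 38.7 normalized counts of Adipoq and 182 of Cfd, where the other 7 libraries held at most 4.49 and 8.64. The deposited TPM depended unevenly on 1 small-RNA locus, Mir6236, which took from 0.308% (Null 4) to 89.4% (Null 1) of a library. They were therefore used below only for comparisons between genes of the same library, and as an alternative table.

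Pnpla3 rose, Dgat2, Lpin1 and Lpin2 fell, and Dgat1 rose slightly. The calls of Lpin2 and Dgat1 were each lost without single libraries, as given below. Of the 8 genes that reached the filter on low values (at least 10 normalized counts in at least 4 libraries), 2 were called higher and 3 lower with limma at an adjusted p under 0.05. Over all 13301 genes tested, 21.2% were called, 11.4% higher and 9.82% lower. The median log2 change was 0.19 over the 8 genes and 0.0068 over all tested genes. Pnpla3 was under 10 in every Null library except Null 1, so that it passed this filter through the ATF3 libraries. The count of 2 and the median include it. With a mean of at least 50 required, which left Pnpla3 out, the median was 0.062, against 0.0073 over all genes then tested. Groups did not overlap for 4 of the 8 genes, Pnpla3 among them. Over all tested genes the share was 26.3% (13.7% with the ATF3 group higher and 12.6% with it lower).

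**Figure D1:**
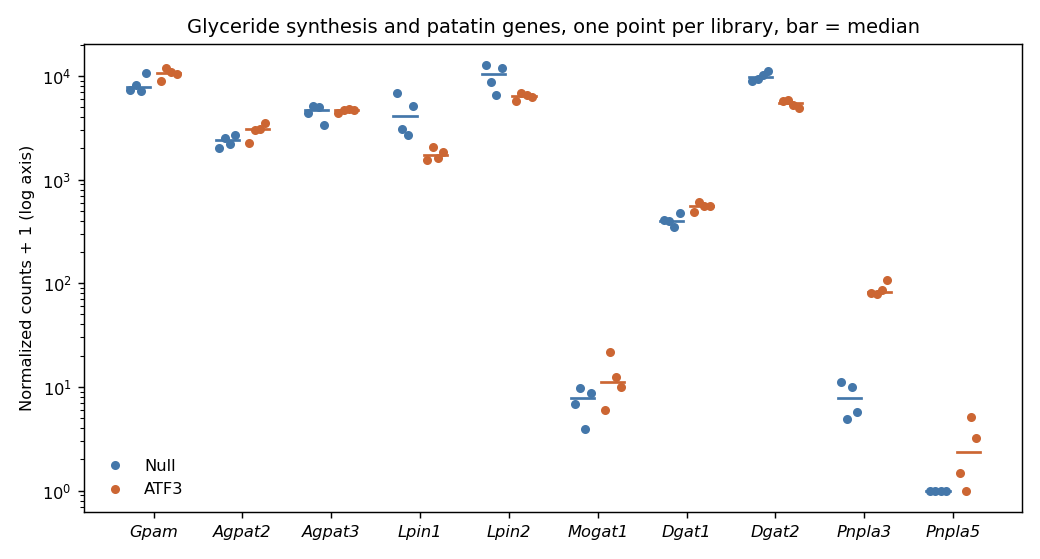
Normalized counts of the 10 genes plus 1, on a log axis, with 1 point per library (blue Null, orange ATF3) and a bar at the median of each group of 4. Pnpla3 lies between 3.91 and 10.2 in Null and between 78.0 and 105.9 in ATF3, the groups of Dgat2, Lpin1 and Dgat1 are apart as well, and those of the other 6 genes overlap.

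Pnpla3 showed the largest log2 change of the 8 tested genes on the normalized counts. Null 1 to 4 held 10.2, 3.91, 9.06 and 4.68 normalized counts of Pnpla3, and ATF3 1 to 4 held 78.8, 78.0, 85.0 and 105.9. Every ATF3 library was thus far above every Null library. The coefficient of variation was 14.99% in ATF3 and 44.9% in Null. The Null values lay near the floor, where a relative spread is wide, so this contrast says little about the groups. The mean went from 6.96 ± 3.13 in Null to 86.9 ± 13.03 in ATF3 (SD, n = 4 per group), a ratio of 12.5. The log2 change was 3.54 (SE 0.30, adjusted p = 2.75e-05 with limma). On the log2(value + 1) scale this understates the change of a gene so low in Null, and with 10 added in place of 1 it was 2.52. With 1 added to the TPM, of which Pnpla3 had at most 1.35, it was 0.92, and 0.67 after rescaling, which is less than the size of the changes of Lpin1 and Dgat2 on the rescaled TPM; Pnpla3 passed the test in both. The call held without any of the 8 libraries in turn (3.34 to 3.74). Null 3, the library with adipocyte transcripts, held 9.06 of Pnpla3, within the range of the other Null libraries. Whether the adipocyte RNA added to that value was not tested.

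Even in the ATF3 group Pnpla3 remained a rare transcript. Its highest value per transcript length was 1.35 TPM in ATF3 4, a library that held 131 TPM of Dgat2 and 144 of Agpat2. In percent of the summed TPM of the 10 genes, Pnpla3 took from 0.00765 to 0.0191 in the Null libraries and from 0.169 to 0.242 in the ATF3 libraries.

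The Pnpla3 gene (ENSMUSG00000041653.5) lies on chromosome 15, 84167837 to 84187236 on the plus strand of mm10, with at most 8 exons per transcript in GENCODE vM21. Pnpla5 (ENSMUSG00000018868.4) lies at 84112356 to 84123175 on the minus strand of the same chromosome, so that the genes point away from each other with start sites 44.6 kb apart in RefSeq. The sequences before both start sites are shown because only 1 of these nearby patatin genes reached a level above 10. They are parts of RefSeq promoter windows of GRCm38.p6 (mm10), 5′ to 3′ on the strand of the gene. The 212 bases of Pnpla3 end with the marked site, short of the start site of its window at 84167816. The 250 bases of Pnpla5 end just before its start site at 84123175. Capitals in Pnpla3 mark the CCAAT box (read as ATTGG on this strand) and the full ATF and CREB site TGACGTCA. Capitals in Pnpla5 mark CCAAT boxes (ATTGG on this strand) and the E-box CACGTG.
Pnpla3 (chr15:84167566-84167777, plus strand): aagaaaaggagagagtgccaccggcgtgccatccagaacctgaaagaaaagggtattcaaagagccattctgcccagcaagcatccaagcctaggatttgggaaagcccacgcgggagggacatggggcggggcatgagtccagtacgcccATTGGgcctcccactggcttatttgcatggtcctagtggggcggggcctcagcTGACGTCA
Pnpla5 (chr15:84123176-84123425, minus strand): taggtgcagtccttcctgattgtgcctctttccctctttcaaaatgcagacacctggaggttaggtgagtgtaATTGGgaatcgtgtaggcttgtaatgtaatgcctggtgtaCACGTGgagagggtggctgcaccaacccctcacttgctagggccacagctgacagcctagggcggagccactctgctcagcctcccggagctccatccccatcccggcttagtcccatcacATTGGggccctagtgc

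The full ATF and CREB site of Pnpla3 starts 46 bases before the start site of its promoter window (chromosome 15, 84167770 to 84167777). The RefSeq gene itself starts at 84167776, within the site, so the site does not lie wholly before every annotated start. ATF3 belongs to the family of factors that bind this palindrome. Windows of 300 bases, 250 before and 50 after a start site, were found for 8 of the 10 genes (11 windows), and Pnpla3 was the only 1 of the 8 with TGACGTCA. Of all 32851 mouse windows in the table, 1.79% held it. The shorter letters TGACG, which the full site contains on each strand, occurred in Gpam, Lpin2 and Pnpla3, and in 20.8% of all windows. The AP-1 site TGANTCA (7.81% of all windows) was found in none of the 8. The direct repeat bound by nuclear receptors (0.0396%) was not in these windows either. The E-box CACGTG (7.15%) was found in Lpin2 and Pnpla5. CCAAT (37.4%) was found in Gpam, Lpin2, Mogat1, Pnpla3 and Pnpla5, and the GC box GGGCGG (35.7%) in Gpam, Agpat2, Lpin2, Pnpla3 and Pnpla5. All motifs were read on both strands. A match describes letters only, and no binding was measured in these samples.

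Pnpla5 was at 0 in each of the 4 Null libraries, and at 0.49, 0, 4.15 and 2.21 normalized counts in the ATF3 libraries (1 to 4). It did not reach the filter, and an exact two-sided permutation test over 70 assignments gave p = 0.143 (0.2 after adjustment over the 2 untested genes). The smallest p this design allows is 0.0286. At this depth Pnpla5 was thus at or near the limit of detection in both groups.

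On the other side of Pnpla3, Samm50 starts 2719 bases after its end in RefSeq. Samm50, which encodes a subunit of the sorting machinery of the mitochondrial outer membrane, held 1388, 1449, 1194 and 807 in the Null libraries (1 to 4) and 1982, 1473, 2141 and 2129 in the ATF3 libraries (1 to 4). Its groups lay close together at ATF3 2 and Null 2 without overlapping. The log2 change was 0.69 (SE 0.19, adjusted p = 0.0272 with limma), and the call was lost without Null 3, ATF3 1, ATF3 3 or ATF3 4 (adjusted p from 0.056 to 0.0828). GENCODE also lists a transcript, Gm49513, that overlaps both Pnpla3 and Samm50 on their strand. Of the 31-base stretches of Pnpla3, 8.37% occur in transcripts of other genes, and no other gene shared more of them than Gm49513. That share was 0.551% for Lpin2 and 0 for the other 8 genes, and none of the 45 pairs of the 10 genes shared such a stretch. Among the tested neighbours nearest to the called genes, Uvrag beside Dgat2 fell by 0.51 (SE 0.08, adjusted p = 0.00156 with limma), although with the deposited TPM its sign turned (0.39). The other 8 neighbours did not pass and lay between -0.45 and 0.52.

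The profile most like that of Pnpla3 over the 8 libraries was sought among all tested genes, as the root mean square difference of log2 values after the Null mean of each gene was subtracted. The 5 nearest genes were Btg3 (0.31), Dhrs9 (0.33), Chil1 (0.40), Ppl (0.41) and Ttc39a (0.44). Btg3, an antiproliferative gene, went from 127 ± 27.1 to 1246 ± 98.7 (SD, n = 4 per group). Dhrs9, a short-chain dehydrogenase gene, had 61.9 ± 28.1 and 625 ± 86.5, and Ppl, the periplakin gene, had 350.5 ± 88.3 and 4020 ± 399. Chil1 lay near the floor in Null (1.23 ± 0.94, against 26.9 ± 6.81 in ATF3) and reached 10 in the 4 ATF3 libraries only. It thus passed the filter through that group. All 5 genes were picked for likeness, so their changes are a description.

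The diacylglycerol acyltransferase genes moved in opposite directions. Dgat2, which makes most triglyceride from newly made fatty acids in mouse liver, held 8866, 9228, 10097 and 11065 normalized counts in the Null libraries (1 to 4) and 5686, 5842, 5201 and 4870 in the ATF3 libraries (1 to 4). All ATF3 libraries were lower than all Null libraries, and the spread within each group was small (coefficients of variation 9.999% and 8.27%). Dgat2 fell by 0.86 on the log2 scale (SE 0.10, adjusted p = 0.000249 with limma), although its sign turned to 0.14 with the deposited TPM, in which the median change of all genes was 0.68. With the TPM rescaled by median of ratios it was -0.86. Dgat1, the enzyme of the same step that also esterifies fatty acids taken up from outside, held 402, 397, 348 and 478 in the Null libraries (1 to 4) and 490.04, 607, 548 and 556 in the ATF3 libraries (1 to 4). Its groups were apart by the small gap between Null 4 and ATF3 1. Dgat1 rose by 0.44 (SE 0.12, adjusted p = 0.0234 with limma), but the call was lost without Null 2, Null 3, ATF3 2, ATF3 3 or ATF3 4 (adjusted p from 0.0558 to 0.0715).

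The ratio of both genes within a library does not depend on how libraries are scaled. Per transcript length, Dgat2 exceeded Dgat1 by 18.1, 19.1, 23.9 and 19.1 times in the Null libraries (1 to 4) and by 9.55, 7.92, 7.80 and 7.20 times in the ATF3 libraries (1 to 4). The ratio was thus lower in each ATF3 library than in any Null library, 20.1 ± 2.61 in Null and 8.12 ± 1.003 in ATF3 (SD, n = 4 per group). The log2 difference was -1.30, with an exact two-sided permutation p = 0.0286, the smallest the design allows, and 0.0429 after adjustment over 3 ratios. Without each library in turn it lay between -1.39 and -1.22. Dgat2 still remained the more abundant transcript in all 8 libraries.

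**Figure D2:**
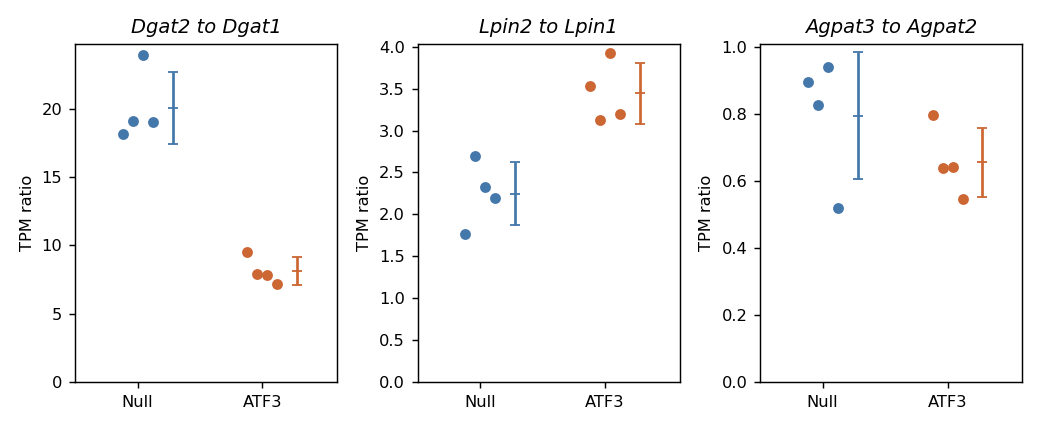
Ratio of TPM within each library for 3 pairs of enzymes of the same step (y axes start at 0), with 1 point per library and the mean ± SD beside each group of 4. The Dgat2 to Dgat1 ratio is lower and the Lpin2 to Lpin1 ratio higher in all ATF3 libraries than in all Null libraries, and the Agpat3 to Agpat2 ratios overlap.

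Dgat2 (ENSMUSG00000030747.5) lies on chromosome 7, 99153658 to 99182719, and Dgat1 (ENSMUSG00000022555.12) on chromosome 15, 76502015 to 76511953, both on the minus strand of mm10. No other annotated gene overlaps either of them.

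Lpin1 and Lpin2 were both called lower, and the values of each spread more among the Null than among the ATF3 libraries. Lpin1, a phosphatidate phosphatase that also acts as a coactivator in the nucleus, held 6772, 3075, 2671 and 5165 in the Null libraries (1 to 4) and 1525, 2055, 1595 and 1836 in the ATF3 libraries (1 to 4). Null 1 and Null 4 were high, but Null 3, the lowest Null library, was still above the highest ATF3 library. The coefficient of variation of Lpin1 was 43.2% in Null and 13.8% in ATF3. Lpin1 fell by 1.24 (SE 0.26, adjusted p = 0.00782 with limma), and the call held without each library in turn (-1.45 to -1.0025). With the deposited TPM it was -0.23 and did not pass (adjusted p = 0.777), and with the rescaled TPM it was -1.18.

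Lpin2, the phosphatase of the same kind with the higher level in liver, held 12638, 8727, 6553 and 11966 in the Null libraries (1 to 4) and 5673, 6770, 6597 and 6195 in the ATF3 libraries (1 to 4). Null 1 and Null 4 were again the highest, and Null 3 lay within the ATF3 range, so that the groups overlapped. Lpin2 fell by 0.62 (SE 0.19, adjusted p = 0.0427 with limma). With the deposited TPM the sign turned to 0.37, where the median change of all genes was 0.68. With the rescaled TPM Lpin2 was at -0.61. The call was lost without every library except Null 3 (adjusted p from 0.0606 to 0.107), and it was lost when no filter on low values was used (adjusted p = 0.0559). Lpin1 fell further than Lpin2: the ratio of Lpin2 to Lpin1 per transcript length was 1.77, 2.69, 2.33 and 2.20 in the Null libraries (1 to 4) and 3.53, 3.12, 3.92 and 3.20 in the ATF3 libraries (1 to 4). These groups did not overlap, and the log2 difference was 0.63 (exact two-sided permutation p = 0.0286, or 0.0429 adjusted over 3 ratios). Without ATF3 1 or ATF3 3 the exact p was 0.0571 (differences of 0.61 and 0.56).

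The genes most like Lpin1 were also sought, by the same measure and after its values were seen. They were Scd1 (0.16), Angptl8 (0.25), Sox12 (0.28), Pogk (0.28) and Smad9 (0.29). Scd1, the stearoyl-CoA desaturase gene, held 154751, 89339, 59055 and 130168 in the Null libraries (1 to 4) and 37912, 59121, 45448 and 51159 in the ATF3 libraries (1 to 4). The Scd1 groups overlapped narrowly at Null 3 and ATF3 2, and its call (-1.09, adjusted p = 0.019 with limma) was lost without ATF3 1 or ATF3 3. As for Lpin1, Null 1 and Null 4 were the highest of the Null libraries. The genes of this list were picked for likeness to Lpin1 over these libraries, so this pattern and their changes are a description. Angptl8, an inhibitor of lipoprotein lipase that is induced by feeding, held 876, 292, 449 and 667 in the Null libraries (1 to 4) and between 210 and 240 in ATF3. In bulk liver, fewer cells of a type and less RNA per cell cannot be told apart. For the time of day and the feeding state of each mouse no label was found.

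**Figure D3:**
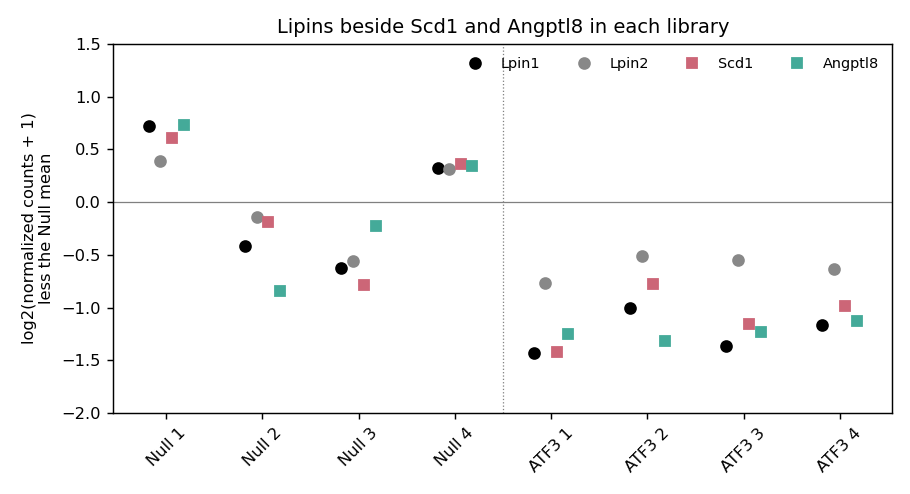
Log2(normalized counts + 1) of Lpin1, Lpin2, Scd1 and Angptl8 in each library, less the Null mean of each gene, with 1 point per library and gene. Scd1 and Angptl8 were picked for likeness to Lpin1 over these libraries. Null 1 and Null 4 lie above the Null mean for all 4 genes, Null 2 and Null 3 lie below it, and all ATF3 points lie below it. With the deposited TPM the mean change of Lpin2 was above 0 (0.37), and with the rescaled TPM it was -0.61.

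Lpin1 (ENSMUSG00000020593.15) lies on chromosome 12, 16535669 to 16610966 on the minus strand, and Lpin2 (ENSMUSG00000024052.17) on chromosome 17, 71182560 to 71249817 on the plus strand of mm10.

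The acyltransferases of the first steps did not pass the test. Gpam held 7343, 8151, 7203 and 10737 in the Null libraries (1 to 4) and 8983, 12016, 10887 and 10376 in the ATF3 libraries (1 to 4), so that only Null 4 reached the ATF3 range. Its log2 change was 0.35 (SE 0.14, adjusted p = 0.115 with limma). Gpam passed without Null 4, at 0.48 (adjusted p = 0.00913), and with library weights, at 0.44 (adjusted p = 0.00596).

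Agpat2, the lysophosphatidate acyltransferase that adipose tissue depends on, held 2029, 2538, 2219 and 2678 in the Null libraries (1 to 4) and 2249, 3024, 3067 and 3517 in the ATF3 libraries (1 to 4). ATF3 1 alone lay within the Null range. The log2 change was 0.32 (SE 0.14, adjusted p = 0.154 with limma); it passed without ATF3 1, at 0.44 (adjusted p = 0.0324), and with library weights, at 0.41 (adjusted p = 0.0245). Agpat3, which makes phosphatidic acid and also reacylates phospholipids, held 4399, 5071, 5045 and 3356 in the Null libraries (1 to 4) and between 4334 and 4753 in ATF3. Its log2 change was 0.06 (SE 0.13, adjusted p = 0.782 with limma), and its sign turned without Null 4 (-0.069) and with library weights (-0.058). The ratio of Agpat3 to Agpat2 per transcript length, 0.794 ± 0.190 in Null and 0.655 ± 0.104 in ATF3 (SD, n = 4 per group), did not pass (log2 difference -0.25, exact two-sided permutation p = 0.343). Without Null 4 the difference was -0.45 (exact p = 0.0571), and without Null 3 it was -0.16.

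Gpam (ENSMUSG00000024978.11) lies on chromosome 19, 55067268 to 55127238, Agpat2 (ENSMUSG00000026922.13) on chromosome 2, 26593057 to 26604417, and Agpat3 (ENSMUSG00000001211.15) on chromosome 10, 78269178 to 78352489, all on the minus strand of mm10. Agpat2 overlaps Egfl7 and Gm20532 of the other strand, Mogat1 overlaps BC035947 and Gpam overlaps AC110206.1, both also of the other strand. Agpat3 overlaps Mir7659 of its own strand, and Gm47992, n-R5s77 and Gm40709 of the other. Lpin2 overlaps Gm26561 of its own strand. Besides Gm49513, Pnpla3 overlaps Mir6392 of its own strand and Gm20369 of the other. The library kit was stranded, but the strand setting of the counting is not given in the sources used here.

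Mogat1, the monoacylglycerol acyltransferase, was hardly transcribed in any library. It held 5.84, 8.79, 2.95 and 7.71 in the Null libraries (1 to 4) and 5.03, 20.8, 11.6 and 8.93 in the ATF3 libraries (1 to 4), and did not reach the filter. ATF3 2 was the highest library and ATF3 1 lay within the Null range. The difference of mean log2(value + 1) was 0.71, with an exact two-sided permutation p = 0.2. It was 0.39 without ATF3 2, 0.44 without Null 3, 0.37 with 10 added in place of 1 and 0.40 with the TPM. Mogat1 (ENSMUSG00000012187.13) lies on chromosome 1, 78510991 to 78538173 on the plus strand of mm10.

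Per transcript length, the set was led by Dgat2 in every Null library, where it took 38.8% ± 3.53 of the summed TPM of the 10 genes, against 26.4% ± 3.10 in ATF3 (SD, n = 4 per group). These percentages do not depend on library scaling, but they must sum to 100, so that a lower share of 1 gene raises the others. Agpat2 took 14.2% ± 1.55 in Null and 21.9% ± 3.05 in ATF3, and it was the most abundant or the next after Dgat2 in each ATF3 library. Gpam went from 11.99% ± 1.41 to 18.8% ± 0.998, and all 4 ATF3 libraries (17.7% to 20.0%) were above all Null libraries (10.6% to 13.8%). Agpat3 had 11.3% ± 2.82 and 14.1% ± 0.571, which overlapped. Lpin2 had 14.9% ± 3.49 and 11.7% ± 0.316, which overlapped as well. Lpin1 had 6.93% ± 2.78 in Null and 3.43% ± 0.288 in ATF3, with no overlap. Dgat1 rose in share from 1.94% ± 0.0982 to 3.26% ± 0.0638 and thus stood near Lpin1 in the ATF3 libraries, where the order of both differed between libraries. Mogat1, Pnpla3 and Pnpla5 together stayed under 1% in all libraries.

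**Figure D4:**
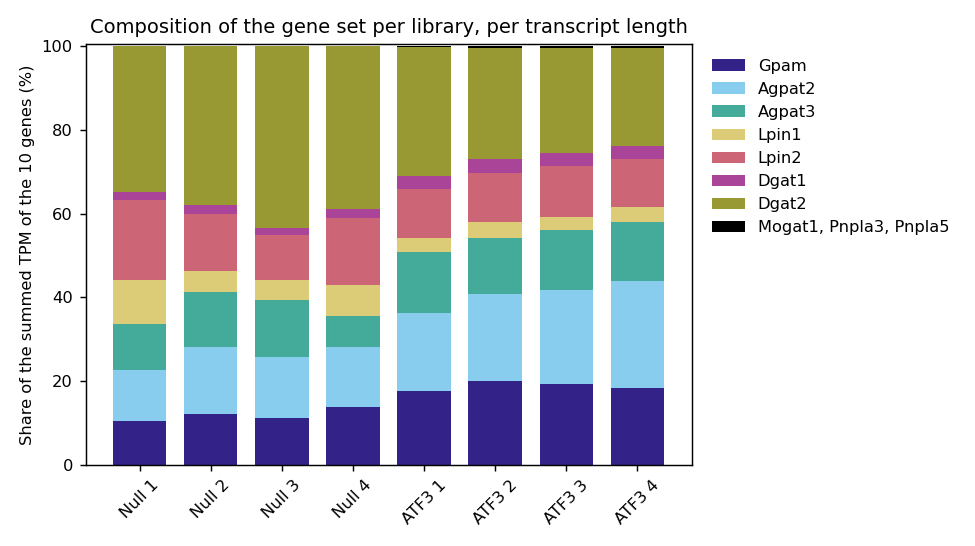
Share of each gene in the summed TPM of the 10 genes, as stacked bars from 0 to 100%, for each of the 8 libraries. The Dgat2 part spans 34.8% to 43.3% in Null and 23.4% to 30.7% in ATF3, and the parts of Gpam, Agpat2 and Dgat1 are wider in all ATF3 libraries than in any Null library.

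Of 16 other genes of glycerolipid synthesis 15 were tested, and 6 rose and 0 fell with limma, where 11.4% of all tested genes rose and 9.82% fell. Their median log2 change was 0.23, against 0.0068 over all tested genes, and the 9 genes that did not pass lay between -0.39 (Gpat3) and 0.43 (Gpat4). Gpd1, the cytosolic glycerol-3-phosphate dehydrogenase that makes the backbone of the pathway, rose by 0.80 (SE 0.11, adjusted p = 0.00076) from 8792 ± 746 to 15330 ± 1787 normalized counts (SD, n = 4 per group). Gk, the glycerol kinase gene, rose by 0.61 (SE 0.14, adjusted p = 0.0101 with limma). Lpin3, the remaining lipin, rose by 0.70 (SE 0.18, adjusted p = 0.019 with limma), opposite to Lpin1 and Lpin2, from a level of 146 ± 36.0 normalized counts; the call was lost without ATF3 2 or ATF3 3 (adjusted p from 0.0503 to 0.0632). The lipid phosphate phosphatase genes Plpp2 and Plpp3 rose by 0.50 and 0.40, and Gpd1l rose by 0.48, a call lost without Null 1, Null 2, Null 3, ATF3 2, ATF3 3 or ATF3 4. Gpat4, the acyltransferase of the endoplasmic reticulum, was at 0.43 and did not pass (adjusted p = 0.0584 with limma); it passed without Null 1 (adjusted p = 0.0403), with library weights and with upper-quartile scaling.

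**Figure D5:**
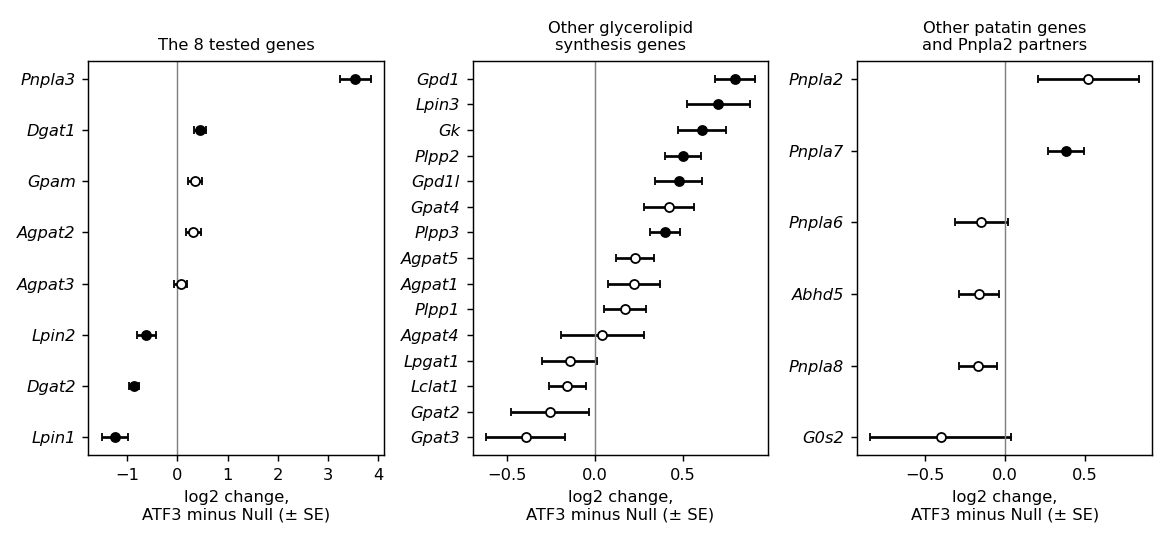
Log2 change (ATF3 minus Null, ± SE, 4 libraries per group) of the 8 tested genes, of 15 other glycerolipid synthesis genes and of 6 patatin genes and partners; filled points passed an adjusted p of 0.05, and the x axes differ. Pnpla3 lies at 3.54, Lpin1, Dgat2 and Lpin2 are below 0, and Lpin3 is above it. With the deposited TPM the signs of Dgat2 and Lpin2 turned, and with the rescaled TPM their changes were -0.86 and -0.61.

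In the branch that leads from phosphatidic acid and diacylglycerol to phospholipids, 3 of 16 tested genes rose and 2 fell (median 0.11), beside 11.4% and 9.82% of all tested genes. Selenoi, the ethanolamine phosphotransferase, which uses diacylglycerol as Dgat1 and Dgat2 do, held 1983, 2526, 2643 and 2333 in the Null libraries (1 to 4) and 916, 1027, 927 and 1006 in the ATF3 libraries (1 to 4). It fell by 1.28 (SE 0.11, adjusted p = 2.16e-05 with limma). The choline kinase gene Chka fell by 0.76, a sign that turned with the deposited TPM (0.11) but not with the rescaled TPM (-0.62). The ethanolamine kinase genes Etnk1 and Etnk2 rose by 0.59 and 0.80.

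Among the other patatin-like genes and the partners of Pnpla2, 1 of 6 tested genes rose and 0 fell (median -0.16), a share near the 11.4% of all tested genes that rose. Pnpla7, a lysophospholipase gene, rose by 0.38 (SE 0.11, adjusted p = 0.0349 with limma), a call lost without Null 1, Null 3, ATF3 2, ATF3 3 or ATF3 4 (adjusted p from 0.087 to 0.11). Pnpla2, the adipose triglyceride lipase gene, was at 0.52 and did not pass (SE 0.32, adjusted p = 0.282 with limma); it was at 0.15 without Null 4 and at 0.22 with library weights. It held 839 in Null 4 and between 2133 and 3200 in the other 7 libraries.

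Of 18 regulators of these genes, all tested, 6 rose and 5 fell (median -0.22), while 11.4% of all tested genes rose and 9.82% fell. Srebf1, which encodes SREBP-1c and SREBP-1a, held 3763, 4439, 3394 and 3931 in the Null libraries (1 to 4) and 9014, 9132, 9975 and 9914 in the ATF3 libraries (1 to 4), with the groups far apart. It rose by 1.30 (SE 0.10, adjusted p = 1.40e-05 with limma). Insig1 and Insig2, which hold SREBP in the endoplasmic reticulum, rose by 0.64 and 0.96, and Ppargc1a, the coactivator gene that also acts on Lpin1, rose by 0.77. Ppara rose by 0.40, and Usf2 and Nr3c1 fell by 0.59 and 0.41. The alternatives were not read gene by gene for Ppara, Usf2 and Nr3c1. Mlxipl, which encodes the glucose-sensing factor ChREBP, fell by 0.44 (SE 0.13, adjusted p = 0.0336 with limma), with its sign turned by the deposited TPM (0.55) and the call lost without Null 1, Null 2, Null 3, ATF3 2, ATF3 3 or ATF3 4 (adjusted p from 0.0565 to 0.105). Its partner gene Mlx rose by 0.64. Pparg, which drives triglyceride storage in fatty liver, held 266, 387, 249 and 421 in the Null libraries (1 to 4) and 149, 158, 143 and 176 in the ATF3 libraries (1 to 4). Pparg fell by 1.04 (SE 0.18, adjusted p = 0.00239 with limma), and Ppargc1b, a coactivator of SREBP, fell by 0.86, with its sign turned by the deposited TPM (0.028).

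With limma, 2 of the 6 hepatocyte markers (Ttr and Tat) were called higher and Cps1 lower. Of the Kupffer cell markers 0 of 6 were called, and of the endothelial markers 0 of 6. Of the stellate and cholangiocyte markers, Rgs5 and Sox9 were called lower. Over all tested genes 21.2% were called, 11.4% higher and 9.82% lower, so lists this short cannot show that a cell type was unchanged. Summed Kupffer cell markers spanned 5999.65 to 9694 in Null and 7054 to 10916 in ATF3, and summed endothelial markers 9117 to 10854 and 9136 to 9422. Summed stellate markers spanned 10239 to 13979 in Null and 9166 to 10547 in ATF3, with a median log2 change of -0.32 over the 6 markers. Summed cholangiocyte markers spanned 884 to 1437 and 894 to 1266. For T and B cells, 0 of 4 tested markers were called, and the sums were 84.1 to 135 and 69.6 to 94.6. In ATF3 1 the Kupffer cell marker Marco was at 1453, against 130 to 365 in the other 7 libraries. ATF3 1 was also the highest library for Adgre1 (1755), Cd5l (4223) and Timd4 (447), but not for Clec4f (2157) or Vsig4 (880). The adipocyte list, with none of its 6 markers at 0 in all libraries but Adrb3 making up most of the sum outside Null 3, summed to between 88.7 and 389 in Null and between 41.2 and 116 in ATF3. Whether other cells had a part in the changes above was not tested.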

How the data were processed

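Liver RNA was isolated by mirVana and sequenced from stranded total RNA libraries, per the labels. The submitters' processing notes name Bowtie2 and mm10; for the quantifier, annotation and strand setting, the answer is: not given in the sources used here. The authors deposited a signal of normalized counts, by its name a DESeq scaling, which are not whole numbers. The authors also deposited TPM, which by their name are scaled to transcript length and library total. As the values are no counts, the limma alternative named in the design was used: limma 3.58.1 in R 4.3.3, eBayes with a trend, two-sided, on log2(value + 1) of the normalized counts, with a term for group over all 8 libraries. A gene was tested where 4 or more libraries reached 10, which left 13301 genes; p-values were adjusted after Benjamini-Hochberg and called under 0.05. Genes under the filter and ratios of TPM were tested by exact two-sided permutation over 70 assignments. The fit was tested on simulated data. No pair of libraries had identical values above 0 in any tested gene (count 0). Libraries are numbered in accession order, which pairs none.

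The genes and lists were chosen with earlier results of these data known. Named are all 10 genes, genes of each list with the smallest p, nearest tested neighbours, and the 5 genes most like Pnpla3. Lpin3, Gpat4, Gpd1l, Insig1, Insig2, Ppargc1b, Mlxipl, Ppara, Usf2, Nr3c1, Gpat3 and Plpp3 were named after their values were seen. So were Ttr, Tat, Cps1, Marco, Adgre1, Cd5l, Timd4, Clec4f, Vsig4, Rgs5, Sox9 and the genes like Lpin1. Gene positions and 31-base stretches come from GENCODE vM21, promoter windows and neighbours from RefSeq (GRCm38.p6). Depth in reads is unknown. Alternatives covered the added value, filter, scaling, TPM, variance model and each library left out.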

Additional observations from a re-analysis of the deposited data

How the results depend on the processing

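No paired analysis was possible because the labels give no number shared between the groups. Of the 10 genes, the calls of Pnpla3 held under all alternatives that tested it, and those of Lpin1 and Dgat2 under all but the unscaled TPM. With those TPM, 1 of the 10 genes was higher and 0 lower, among 440 higher and 76 lower genes in all. All 4 lists then had 0 higher and 0 lower genes, and the sign turned for Dgat2 (0.14), Lpin2 (0.37), Chka (0.11), Mlxipl (0.55), Ppargc1b (0.028) and Uvrag (0.39). The median change of all genes was then 0.68, and 0.0007 after median-of-ratios rescaling. Library weights gave 4 of the 10 genes higher, 2271 higher and 2130 lower genes in all, 6 higher phospholipid genes, 8 lower regulators and -0.058 for Agpat3. With a mean of at least 50, 1 of the 10 was higher, since Pnpla3 was not tested. With 1 library left out, 1 to 3 of the 10 were higher and 2 to 3 lower, and in all 1040 to 1965 genes were higher and 851 (without ATF3 3) to 1812 lower. Patatin genes higher ranged from 0 to 1 and phospholipid genes higher from 2 to 5; Agpat3 ranged from -0.069 (without Null 4) to 0.13. The Lpin2 to Lpin1 ratio ranged from 0.52 to 0.72, with 0.61 and 0.56 without ATF3 1 and ATF3 3. Where no construction is named, the cause was not tested.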
